A study of Mus musculus with 6 samples.

Results

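The genes described here encode the GTPase-activating proteins (GAPs) and guanine nucleotide exchange factors (GEFs) of the RhoA, Rac, Cdc42, Ras and Rap small GTPases. They were taken by symbol, as every gene whose symbol opens with Arhgap, Arhgef, Rasgef, Rapgef, Rasal or Srgap, or with Rasgrp, Dock or Rasa and a digit. This gave 91 of the 19938 genes measured. There were 43 GAP genes, 36 of them RhoGAPs and 7 RasGAPs, and 46 GEF genes, made up of 23 Arhgef RhoGEFs, 10 DOCK genes, 7 RasGEFs and 6 RapGEFs. The remaining 2 members were transcripts annotated as opposite-strand partners of GAP genes, Arhgap33os and Arhgap20os, and they were kept apart. Expression was measured in N2A cells, a mouse neuroblastoma line, after transient transfection with 1.5 µg of a short hairpin RNA (shRNA) vector. The study's methods place RNA extraction 2 to 3 days after transfection, and its figure legends give 3 days for Pax6 knockdown. A non-targeting vector was used for 3 control arrays and a vector against Pax6 for 3 knockdown arrays. Both groups share the cell line and the transfection method, and no difference in time between them is stated. Each array was made from 200 ng of total RNA, and no selection of transfected cells was described. The comparison asks which GAP and GEF transcripts differed when Pax6, a transcription factor of brain and eye development, was reduced.

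Small GTPases switch between a GTP-bound active state and a GDP-bound inactive state. GEFs load them with GTP and so switch them on, whereas GAPs speed up GTP hydrolysis and switch them off. In neurons and neuroblastoma cells, RhoA, Rac and Cdc42 shape the actin cytoskeleton, with RhoA favouring contraction and neurite retraction and Rac and Cdc42 favouring outgrowth, while Ras and Rap relay signals from growth factor and cyclic AMP receptors.

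The study lists a single pair of oligonucleotides for a Pax6 hairpin, and its forward strand is shown first, with the loop and the terminator in capitals and the targeting arms in lower case. The labels of the arrays do not name the hairpin construct that was used.
Pax6 hairpin, forward strand: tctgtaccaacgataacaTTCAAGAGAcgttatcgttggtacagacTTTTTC

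All values are deposited log2 signals, and a difference is always the mean of the 3 knockdown arrays less that of the 3 control arrays. Pax6 lay between 8.79 and 8.82 on the control arrays and between 8.30 and 8.502 on the knockdown arrays, and fell by 0.38 on the log2 scale (SE 0.071, limma adjusted p = 0.0382). At a false discovery rate (FDR) of 10%, limma called 762 of 11424 tested genes. A gene was tested where its signal exceeded the median of the array on at least 3 of the 6 arrays. Of 13 measured noradrenergic neuroblastoma markers all 13 were tested, at mean signals between 7.90 and 13.5, and 4 of them (Dbh, Chgb, Isl1 and Chga) fell. The other 9 were not called, and 4 of these had a higher knockdown mean. The log2 of the summed signal of these markers was 15.64 to 15.68 on the control arrays and 15.48 to 15.52 on the knockdown arrays. Its part in the results on GAP and GEF genes was not tested. The sum weighs the brightest markers most, and of these Chgb and Chga differed by -0.48 and -0.30 and Stmn2 by 0.03. Of 5 astrocyte, 5 microglia, 5 endothelial and 5 fibroblast markers, 0, 1, 1 and 2 were tested and none was called, and their summed signals overlapped between the groups. Dcn, a fibroblast marker under the low-value filter, was lower on every knockdown array, by a difference of -0.33. In bulk RNA of this kind, fewer cells of a type and less RNA per cell cannot be told apart.

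In the fit without a replicate block, GEF transcripts supplied both of the calls among the members. Arhgef18 and Arhgef2, which encode exchange factors for RhoA, rose in the Pax6 knockdown, and none of the 30 tested GAP genes passed. With the replicate number as a block 6 GAPs and 6 GEFs passed, so the absence of GAP calls depends on the fit. The shares that follow are from the fit without a block. Of the 91 members, 56 were tested: 30 GAPs, 25 GEFs and the opposite-strand transcript Arhgap33os, which differed by -0.07 (adjusted p = 0.671). The 2 calls among 55 GAP and GEF genes were 3.64% of them, less than the 6.67% of all tested genes that were called (2.79% higher and 3.88% lower). Among GEFs the share was 8.0%, 2 of 25, near that of all genes. At an unadjusted limma p under 0.05, 6 GAPs (4 higher and 2 lower) and 7 GEFs (6 higher and 1 lower) were found, together 23.6% of the 55 against 18.8% of all tested genes.

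Most GAP and GEF transcripts had a slightly higher mean in the knockdown. Without a replicate block these amounts, apart from Arhgef18 and Arhgef2, did not pass the test singly. The knockdown mean was the higher one for 23 of 30 GAPs (76.7%) and 20 of 25 GEFs (80.0%), against 55.5% of all tested genes. The median difference was 0.05 for GAPs, 0.10 for GEFs and 0.02 for all tested genes, and single genes ranged from -0.22 to 0.24 among GAPs and from -0.15 to 0.40 among GEFs. By class the median was 0.06 for RhoGAPs, 0.04 for RasGAPs, 0.10 for Arhgef genes, 0.09 for DOCK genes and 0.08 for RapGEFs. The 3 knockdown arrays lay wholly above the 3 control arrays for 6 GAPs and 9 GEFs and wholly below for 3 GAPs and 1 GEF. That is 34.5% of the 55 genes without overlap, against 25.6% of all tested genes (13.9% above and 11.7% below).

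**Figure D1:**
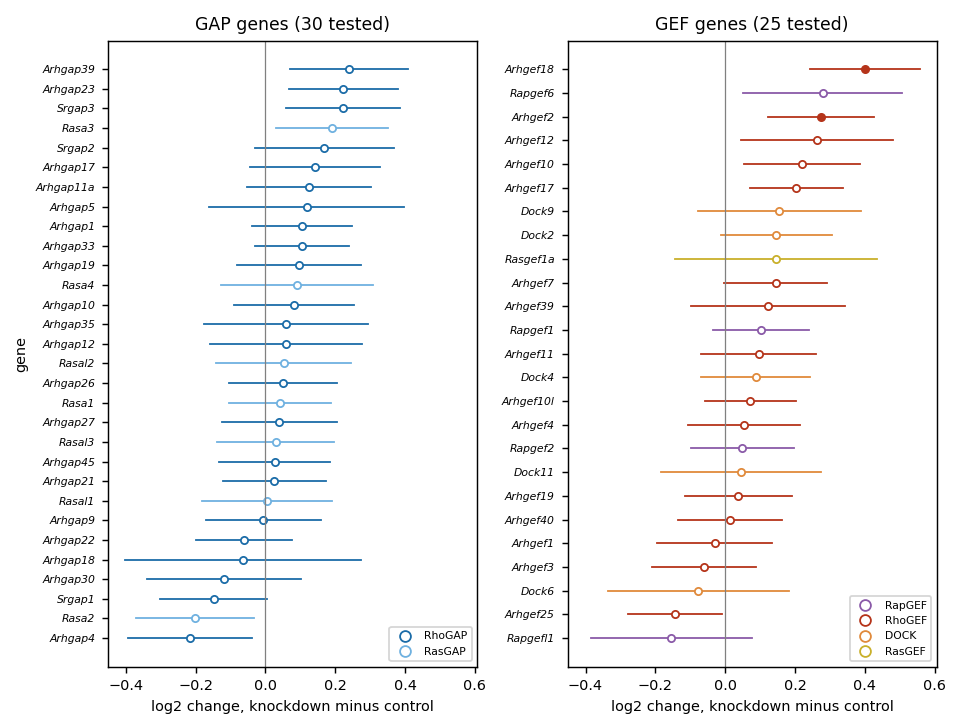
Log2 difference (horizontal axis, positive where knockdown was higher) of each tested GAP (left) and GEF (right), with its 95% confidence interval from limma as a line and the class by colour. Filled points passed 10% FDR in the fit without a replicate block, which only Arhgef18 and Arhgef2 did. To the right of 0 lie 23 of 30 GAPs and 20 of 25 GEFs.

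Arhgef18 (probe set 10569733, chromosome 8) encodes an exchange factor for RhoA that acts at epithelial cell junctions. Its signal was 10.22, 10.34 and 10.32 on control arrays 1 to 3 and 10.75, 10.60 and 10.73 on knockdown arrays 1 to 3. Every knockdown array was above every control array, and the gap between the groups was wider than the spread within either. Control cells averaged 10.29 ± 0.066 (SD, n = 3) and knockdown cells 10.69 ± 0.078 (SD, n = 3). The difference was 0.40 (SE 0.068, 95% confidence interval 0.24 to 0.56, adjusted p = 0.0289), a rise of 32.1% in signal. The call was lost, with the difference between 0.36 and 0.42, when control array 1, 2 or 3 or knockdown array 3 was left out (adjusted p = 0.105, 0.136, 0.118 and 0.141), and it held without knockdown array 1 (0.0582) or 2 (0.0250).

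The start regions of Arhgef18 are shown because PAX6 binds DNA and this gene differed most among the tested members. RefSeq (GRCm38.p6) gives it 2 starts, each taken with 250 bases before and 50 bases after. The first, chr8:3353187-3353486 on the plus strand, is 57.7% G and C and holds 1 cyclic AMP response element core, TGACG, in capitals at base 260, which is just past the start. The second, chr8:3392758-3393057 on the plus strand, holds none of the motifs searched.
Arhgef18 start 1: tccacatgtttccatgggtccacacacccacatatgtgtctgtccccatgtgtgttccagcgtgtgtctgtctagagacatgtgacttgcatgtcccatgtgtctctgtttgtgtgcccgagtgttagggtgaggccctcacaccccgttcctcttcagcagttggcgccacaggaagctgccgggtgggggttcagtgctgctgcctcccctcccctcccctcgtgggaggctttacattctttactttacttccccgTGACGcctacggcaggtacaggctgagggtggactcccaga
Arhgef18 start 2: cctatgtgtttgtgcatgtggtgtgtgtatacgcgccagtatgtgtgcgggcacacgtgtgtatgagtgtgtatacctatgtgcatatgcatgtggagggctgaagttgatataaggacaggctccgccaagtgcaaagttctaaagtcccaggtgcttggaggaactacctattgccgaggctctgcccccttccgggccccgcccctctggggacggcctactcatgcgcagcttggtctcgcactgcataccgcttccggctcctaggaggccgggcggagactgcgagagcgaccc
The motifs searched on both strands were TTCACGC, the core of the site bound by the PAX6 paired domain, TAATTA, a homeodomain site, and TGACG. No start region of Arhgef18, Arhgef2 or Dock10 held TTCACGC or TAATTA, which says only that these letters are not in these windows. Over the 71 GAP and GEF genes with a start region in the RefSeq table, 1 (Arhgap29) held TTCACGC, 1.41% against 1.74% of 15614 genes. TAATTA was found for 5.63% of them (Arhgap1, Arhgap25, Arhgef33 and Rapgef2) against 5.06%, and TGACG for 25.4% against 28.0%, so the shares of the members were close to those of all genes.

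Arhgef2 (probe set 10493267, chromosome 3) encodes a RhoA exchange factor that is held inactive on microtubules and released when they depolymerise. Its signal was 10.80, 10.90 and 10.94 on the control arrays and 11.20, 11.10 and 11.17 on the knockdown arrays, without overlap. Control cells averaged 10.88 ± 0.073 (SD, n = 3) and knockdown cells 11.15 ± 0.054 (SD, n = 3), and the difference was 0.27 (SE 0.065, 95% confidence interval 0.12 to 0.42, adjusted p = 0.0689), a rise of 21.0%. The call was lost when any array but knockdown array 2 was left out. Leaving out control array 1, 2 or 3 or knockdown array 1 or 3 gave adjusted p values of 0.187, 0.231, 0.161, 0.130 and 0.233, and the call held only without knockdown array 2 (0.0547). In the fits that lost it the difference lay between 0.23 and 0.31. Those fits called 51 to 600 of all tested genes, against 762 with all arrays.

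Further Arhgef genes differed in the same direction by smaller amounts and missed 10% FDR. Arhgef17 encodes another RhoA exchange factor, and its signals of 8.37, 8.43 and 8.41 on the control arrays and 8.59, 8.57 and 8.66 on the knockdown arrays did not overlap. The difference was 0.20 (SE 0.058, adjusted p = 0.108), and it passed at 0.0590 when the replicate number was fitted as a block. Arhgef10 and Arhgef12 were chosen after their values were seen. Arhgef10, a RhoA exchange factor that in humans is linked to peripheral nerve conduction, measured 9.40, 9.48 and 9.55 on the control arrays and 9.76, 9.60 and 9.73 on the knockdown arrays, again without overlap. Its difference was 0.22 (SE 0.072, adjusted p = 0.145, blocked 0.0740).

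Arhgef1, Arhgef11 and Arhgef12 form the subfamily that couples trimeric G protein receptors to RhoA through an RGS domain, and their values were not alike. Arhgef12 measured 9.24, 9.25 and 9.38 on the control arrays and 9.70, 9.37 and 9.60 on the knockdown arrays, so that knockdown array 2 lay within the control range. Its difference was 0.26 (SE 0.094, adjusted p = 0.181, blocked 0.0679). The difference was 0.10 (95% confidence interval -0.07 to 0.26, adjusted p = 0.547) for Arhgef11 and -0.03 (-0.19 to 0.13, adjusted p = 0.884) for Arhgef1, intervals that overlap that of Arhgef12, and no test between these genes was made. Of the tested Arhgef genes, Arhgef25 alone had all knockdown arrays below all control arrays, and it was also named after its values were seen. It encodes a RhoA exchange factor driven by Gq proteins. Its signals were 10.53, 10.62 and 10.63 on the control arrays and 10.46, 10.43 and 10.45 on the knockdown arrays, a difference of -0.14 (SE 0.058, adjusted p = 0.239). The other 7 tested Arhgef genes lay between -0.06 and 0.15, and the highest was Arhgef7, an exchange factor for Rac and Cdc42 that binds the PAK kinases, at 0.15 (adjusted p = 0.275).

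**Figure D2:**
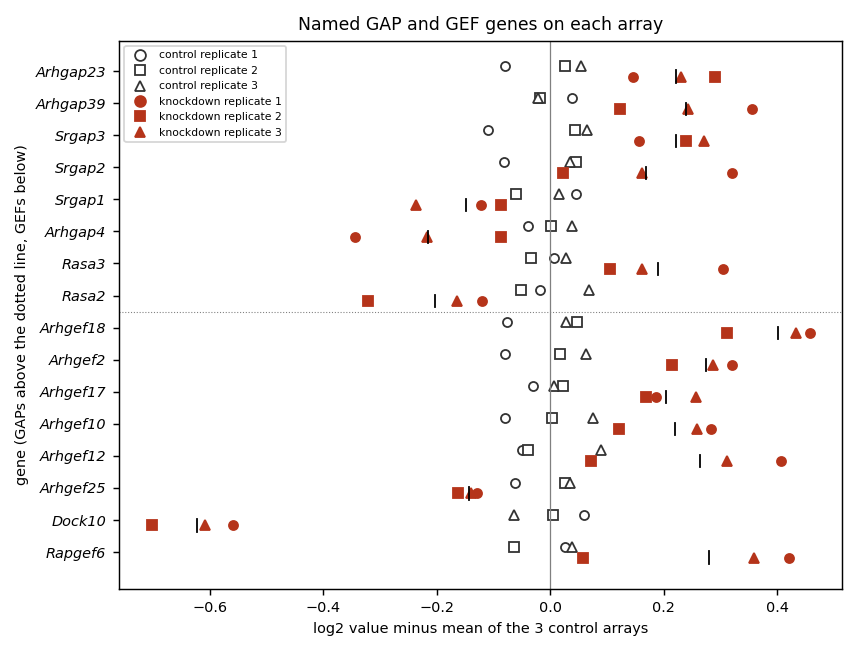
Log2 signal of selected GAP and GEF genes on each array, as the difference from the control mean of the gene (horizontal axis), with open symbols for control, filled symbols for knockdown, the shape for the replicate number and a short line for the knockdown mean. Arhgef18 and Dock10 stand farthest from their control arrays, and knockdown replicate 2 is the one nearest the controls for Arhgef10, Arhgef12 and Rapgef6.

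DOCK proteins are exchange factors for Rac and Cdc42 with a catalytic domain of their own kind, and the member that differed most of all 91 was among them. Dock10 (probe set 10356020, chromosome 1) encodes an exchange factor for Cdc42 and Rac1 that acts in dendritic spines and in lymphocytes. Its signal was 7.57, 7.52 and 7.45 on the control arrays and 6.95, 6.81 and 6.90 on the knockdown arrays, lower on every knockdown array. Control cells averaged 7.51 ± 0.062 (SD, n = 3) and knockdown cells 6.89 ± 0.073 (SD, n = 3), a difference of -0.62 or a 1.54-fold lower signal. Dock10 exceeded the median on 1 array only, so it was not among the tested genes, and it was chosen after its values were seen. When all 19938 genes were tested without the low-value filter, it passed (SE 0.071, 95% confidence interval -0.79 to -0.46, adjusted p = 0.0163), where 1.23% of genes were called (0.888% lower). In that fit the adjusted p was 0.108 and 0.107 without control arrays 1 and 2 and 0.117 without knockdown array 3, it stayed between 0.0348 and 0.0780 without any other array, and the difference lay between -0.66 and -0.58. The RMA method shrinks differences of dim probe sets, so the size of this one is less certain than its sign.

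RefSeq gives Dock10 2 starts, and the CpG-rich one is shown because this member differed most. It is 70.0% G and C and lies at chr1:80758504-80758803 on the minus strand. It holds none of the 3 motifs, so no base is in capitals.
Dock10 start 2: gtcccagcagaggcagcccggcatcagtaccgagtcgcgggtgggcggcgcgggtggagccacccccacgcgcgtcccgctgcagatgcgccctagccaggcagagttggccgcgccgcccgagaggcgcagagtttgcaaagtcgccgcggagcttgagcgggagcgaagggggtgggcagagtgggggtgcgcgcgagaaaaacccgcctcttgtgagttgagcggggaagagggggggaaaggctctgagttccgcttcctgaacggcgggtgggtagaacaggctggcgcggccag

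No tested DOCK gene passed. Dock9 and Dock11, the closest relatives of Dock10 and exchange factors for Cdc42, differed by 0.16 (95% confidence interval -0.08 to 0.39, adjusted p = 0.472) and 0.05 (-0.18 to 0.28, adjusted p = 0.871). In the fit without the low-value filter, which gave the interval for Dock10, theirs were -0.0841 to 0.395 and -0.1905 to 0.2811, both above it. Dock10 was picked as the member that differed most, so this separation partly follows from that choice. Dock2, a Rac exchange factor known from leukocytes, measured 9.33, 9.44 and 9.41 on the control arrays and 9.53, 9.45 and 9.63 on the knockdown arrays. These did not overlap, although knockdown array 2 and control array 2 were nearly equal, and the difference was 0.15 (adjusted p = 0.300). Dock4, a Rac exchange factor and the DOCK gene with the brightest probe set, differed by 0.09 (adjusted p = 0.564). Dock6, an exchange factor for Rac and Cdc42, differed by -0.08 (adjusted p = 0.795) with a control SD of 0.234. It has 15 probe sets, and 13 of them were lower and 2 higher in the knockdown, between -0.13 and 0.05.

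**Figure D3:**
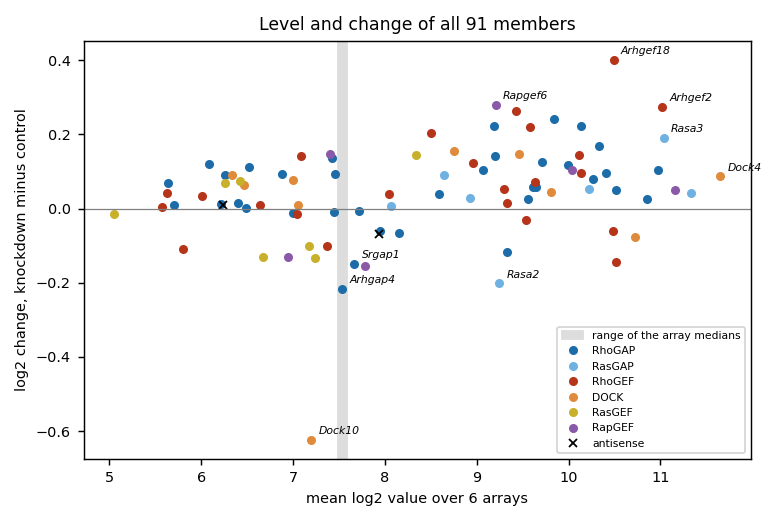
Log2 difference between knockdown and control (vertical axis) by mean log2 signal over the 6 arrays (horizontal axis) for all 91 members, coloured by class, with the range of the array medians (7.49 to 7.59) as a grey band. Dock10, at -0.62, is alone among the dim probe sets left of the band, where the other 34 untested members lie between -0.13 and 0.15.

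Among exchange factors for Rap and Ras none passed. Rapgef6, a Rap exchange factor with a PDZ domain, measured 9.092, 9.003 and 9.104 on the control arrays and 9.488, 9.124 and 9.426 on the knockdown arrays. Knockdown arrays 1 and 3 were well above the controls and knockdown array 2 only just so. The difference was 0.28 (SE 0.099, adjusted p = 0.176), and it passed with the block (0.0449) and without knockdown array 2 (0.0317). Rapgef2, its close relative with the brightest RapGEF probe set, differed by 0.05 (adjusted p = 0.765). Rapgef1, which activates Rap downstream of Crk adaptors, measured 9.93, 9.98 and 10.05 on the control arrays and 10.11, 10.06 and 10.10 on the knockdown arrays, a difference of 0.10 (adjusted p = 0.407). Rapgefl1, a gene related to them, differed by -0.15 (adjusted p = 0.467). Rasgef1a was the only one of the 7 RasGEFs above the filter, with a difference of 0.15 (adjusted p = 0.617) and overlapping groups.

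RhoGAPs showed differences in both directions, and those with the lowest p were higher in the knockdown. Arhgap39, the counterpart of fly Vilse, which in the fly binds the axon guidance receptor Robo, measured 9.76, 9.70 and 9.70 on the control arrays and 10.07, 9.84 and 9.96 on the knockdown arrays. The groups did not overlap, and the difference was 0.24 (SE 0.073, adjusted p = 0.125, blocked 0.0468). Arhgap23 encodes a RhoGAP with a PDZ domain. Its signals were 8.997, 9.102 and 9.130 on the control arrays and 9.223, 9.366 and 9.308 on the knockdown arrays, a difference of 0.22 (SE 0.068, 95% confidence interval 0.07 to 0.38, adjusted p = 0.125, blocked 0.0449). Its paralog Arhgap21, named after its values were seen, differed by 0.03 (-0.12 to 0.17, adjusted p = 0.890), and the intervals of the pair overlap. Arhgap1, a Cdc42 and RhoA GAP with the brightest probe set of the class, differed by 0.11 (adjusted p = 0.423).

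The Slit-Robo GAPs, which bend membranes through their F-BAR domain and act on Rac and Cdc42 during neuronal migration, did not share a direction. Srgap3 measured 9.91, 10.07 and 10.09 on the control arrays and 10.18, 10.26 and 10.29 on the knockdown arrays, without overlap. Its difference was 0.22 (SE 0.071, adjusted p = 0.138, blocked 0.0446), but its second probe set differed by 0.01, and the mean of both gave 0.12 (adjusted p = 0.560). Srgap1 and Srgap2 were named after their values were seen. Srgap2 differed by 0.17 with overlapping groups (SE 0.086, adjusted p = 0.347). Srgap1 was lower on every knockdown array, at 7.79, 7.68 and 7.76 in control and 7.62, 7.66 and 7.50 in knockdown cells, a difference of -0.15 (SE 0.066, adjusted p = 0.281). Its signal was close to the array medians and exceeded them on 5 of the 6 arrays.

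Arhgap4, a RhoGAP with F-BAR and SH3 domains and the lowest difference of any tested member, was chosen after its values were seen. It measured 7.60, 7.64 and 7.68 on the control arrays and 7.30, 7.56 and 7.43 on the knockdown arrays. All knockdown arrays were lower, and the difference was -0.22 (SE 0.077, adjusted p = 0.180, blocked 0.0716). It exceeded the array median on 4 arrays, among them all 3 control arrays, so it passed the filter through the group in which it was the brighter.

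All 7 RasGAPs were tested, and the pair with the lowest p, both of the GAP1 family, lay on opposite sides of 0. Rasa3, which binds inositol phosphates and acts on Ras and Rap, measured 10.95, 10.91 and 10.97 on the control arrays and 11.25, 11.05 and 11.11 on the knockdown arrays. It differed by 0.19 (SE 0.069, adjusted p = 0.186, blocked 0.0860). Rasa2 measured 9.33, 9.30 and 9.41 on the control arrays and 9.23, 9.02 and 9.18 on the knockdown arrays, a difference of -0.20 (SE 0.073, adjusted p = 0.188, blocked 0.0726). Neither gene's groups overlapped. Rasa4, a calcium-triggered member of the family, differed by 0.09 (adjusted p = 0.695). Rasa1, the RasGAP recruited to activated receptor tyrosine kinases, differed by 0.04 (95% confidence interval -0.11 to 0.19, adjusted p = 0.806), and Rasal1, Rasal2 and Rasal3 lay between 0.01 and 0.05.

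The 35 members that were not tested comprised 13 GAPs, 21 GEFs and Arhgap20os. Of these, 30 exceeded the median on no array and 5 on 1 or 2 arrays, with mean signals from 5.05 to 7.46. Apart from Dock10, all lay between -0.13 and 0.15. They included 6 of the 7 RasGEFs, among them Rasgrp1 to Rasgrp4, exchange factors known from blood cells, and Rapgef3, the cyclic AMP-gated exchange factor for Rap. A signal under the median does not show that a transcript was absent.

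The excess of slightly higher means was not even over the arrays. The median deviation from the control mean was 0.14, 0.01 and 0.10 for GEFs on knockdown arrays 1, 2 and 3, and 0.12, -0.02 and 0.08 for GAPs. For all tested genes it was 0.06, -0.05 and 0.03 on the same arrays, so the medians of GAPs and GEFs lay above that of all tested genes on each knockdown array. On control arrays 1, 2 and 3 it was -0.015, -0.020 and 0.037 for GAPs and -0.050, 0.003 and 0.042 for GEFs. For all tested genes it was 0.030, -0.023 and 0.001 there. The medians of GAPs and GEFs thus lay above that of all tested genes on control arrays 2 and 3 also, and below it on control array 1. Knockdown array 2 held the lowest of the 3 knockdown values for 40 of 55 genes (72.7%, against 64.7% of all tested genes), and knockdown array 1 the highest for 36 (65.5%, against 55.8%). The part of this array-wide pattern in the differences of the members was not tested. Centring each array on its median moved the median difference of all tested genes only from 0.0168 to 0.0213. That step could hardly change a direction, and with it the knockdown mean was higher for 43 of 55 genes. After a second quantile normalization the knockdown mean was higher for 44 of 55. Without knockdown array 1 it was higher for 36 of 55, and the median difference was 0.02 for GAPs, 0.05 for GEFs and -0.01 for all tested genes. Without knockdown array 2 it was higher for 45 of 55, with medians of 0.10, 0.12 and 0.05. Without both arrays of replicate 1 it was higher for 33 of 55, with medians of 0.03, 0.06 and 0.01, and without both arrays of replicate 2 for 45 of 55, with medians of 0.09, 0.13 and 0.03.

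**Figure D4:**
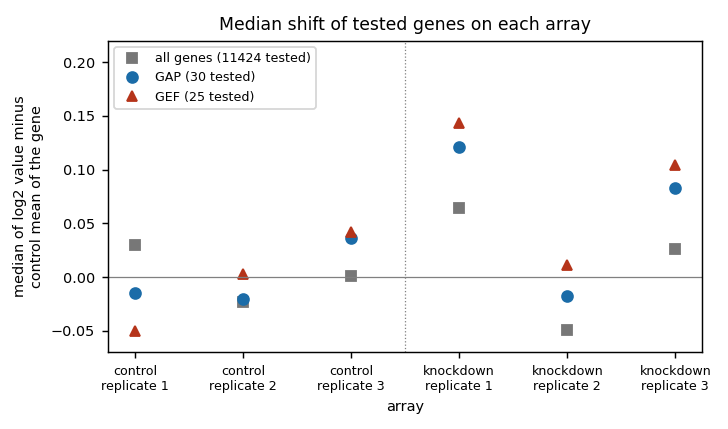
Median over the tested genes of the log2 signal minus each gene's control mean (vertical axis) on each of the 6 arrays, for GAPs, GEFs and all tested genes. On knockdown replicate 2 the medians are -0.02, 0.01 and -0.05, below those of the other knockdown arrays for all 3 sets.

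The replicate number as a block changed the count of calls. In that fit 12 of the 55 genes passed, 21.8% against 17.9% of all tested genes (8.96% higher and 8.91% lower). The 6 GAPs were Arhgap23, Arhgap39, Srgap3 and Rasa3, which were higher, and Arhgap4 and Rasa2, which were lower. The 6 GEFs, Arhgef2, Arhgef10, Arhgef12, Arhgef17, Arhgef18 and Rapgef6, were all higher. A similar count, 10 (4 GAPs and 6 GEFs, 18.2% against 11.2% of all genes), was called when knockdown array 2 was left out without a block.

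**Figure D5:**
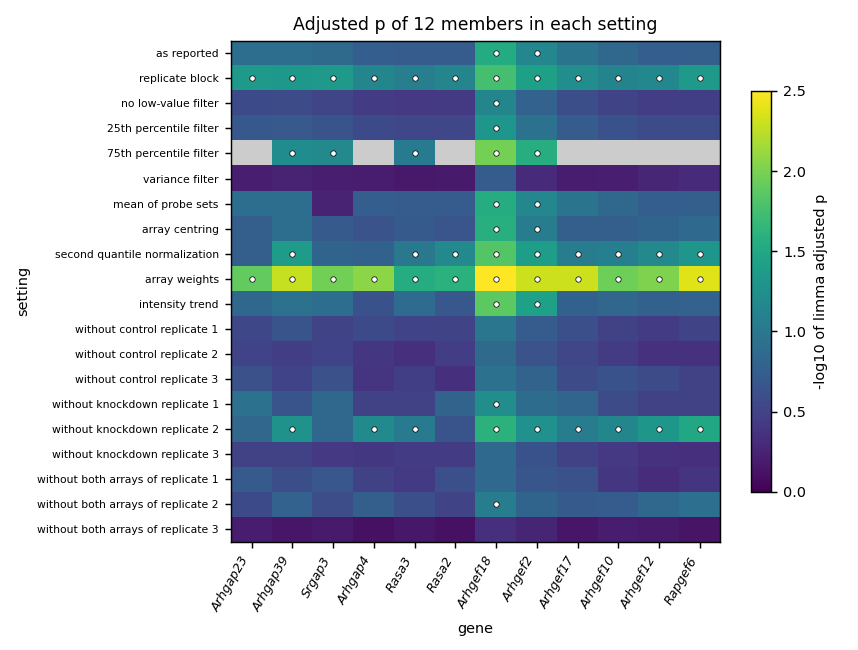
Benjamini-Hochberg adjusted p from limma, as -log10 (colour), of the 12 genes that passed with the replicate block, for each processing setting (rows), with white points where 10% FDR was passed and grey where the gene was not tested. Arhgef18 passed in the most settings. That all 12 genes passed with the block follows from how they were chosen. All 12 also passed with array weights, a setting that called 37.1% of all tested genes and whose estimate did not converge.

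Genes around the GAPs and GEFs in the same pathways were read from lists of GTPases, further regulators and effectors. Of 184 genes listed, 134 were tested, 3 were higher and 1 lower at 10% FDR (2.99%, against 6.67% of all tested genes), and the median difference was 0.05. None of 18 GTPases of the family of RhoA, Rac and Cdc42 and 14 Ras and Rap family GTPases passed, and those with the lowest p were Rhoc at 0.24 (adjusted p = 0.113) and Mras at 0.20 (0.140). Of 30 tested effectors of RhoA, Rac and Cdc42, Limk1, the kinase that inactivates the actin-severing protein cofilin, rose by 0.28 (SE 0.056, adjusted p = 0.0445), and Cdc42ep5, a Cdc42-binding effector, rose by 0.28 (SE 0.073, adjusted p = 0.0851). Daam2, a formin that assembles actin filaments, fell by 0.47 (SE 0.11, adjusted p = 0.0676). Sipa1l2, a Rap GAP outside the symbol rule, rose by 0.22 (SE 0.059, adjusted p = 0.0964). No other RhoGEF (23 tested), RhoGAP (18 tested), Ras or Ral GEF (7 tested), DOCK partner or Ras effector (11 tested) passed; the lowest p in these lists belonged to Prex1 (0.20, adjusted p = 0.154), Abr (0.22, 0.116), Sos2 (0.23, 0.106) and Ksr1 (0.16, 0.221). The single tested guanine nucleotide dissociation inhibitor, Arhgdib, differed by 0.03 (adjusted p = 0.883).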

How the data were processed

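N2A cells were profiled on Affymetrix Mouse Gene 1.0 ST arrays, 3 control and 3 Pax6 knockdown, called biological replicates by the study, and p-values reflect only the scatter among these transfected cultures. The deposited values are log2 summaries that the authors made by RMA background correction, quantile normalization and summarization. Versions and genome build are not given in the sources used here. This normalization hides a change in total RNA per cell. Of 35556 probe sets, those with 1 symbol in the platform annotation were used, the brightest per gene. Groups were compared with limma 3.58.1 in R 4.3.3 (lmFit and eBayes, two-sided, Benjamini-Hochberg over 11424 genes above the array median on 3 or more arrays), at the study's threshold of 10% FDR. The members and lists were chosen with earlier results of these data known. Genes named by rule were every member called, the 3 lowest p and the brightest probe set per class, and the leading genes of each other list. Other genes named, among them Arhgef1, Arhgef7, Arhgef11, Dock6, Dock11 and Rasal1 to Rasal3, fell outside this rule and were not chosen in advance. Control and knockdown deviations correlated within replicate numbers (0.574, 0.323 and 0.23), every value above 0.1, which met the rule for pairing by number. The reported fit has no block and so leaves this pairing out, and the study's methods do not say whether replicates were blocked. The blocked fit was an alternative, with other filters, probe set means, centring, a second quantile normalization, array weights, an intensity trend and left-out arrays. Control 3 with knockdown 2 also correlated (0.178), and the labels do not say what a number marks. The number of arrays limits the precision.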

Additional observations from a re-analysis of the deposited data

How the results depend on the processing

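The main counts were 762 genes, 0 GAPs and 2 GEFs past 10% FDR. With the replicate block they were 2042, 6 and 6, with a second quantile normalization 1383, 3 and 6, and with array weights, whose estimate stopped before it converged, 4239, 12 and 11. All genes numbered 245 without the low-value filter and 389 with it at the 25th percentile, and the 2 GEFs in each were Arhgef18 and Dock10. The variance filter left 127 genes and 1 GEF, Dock10. The 75th percentile filter gave 1046 genes, 3 GAPs and 2 GEFs, 20.8% of the members tested in that setting against 17.5% of all genes. The limma adjusted p of Dock10 was 0.0101 with the 25th percentile filter and 0.00971 with the variance filter. Leaving out 1 array gave 51 to 1285 genes, 0 to 4 GAPs and 0 to 6 GEFs. Leaving out both arrays of replicate 1, 2 or 3 gave 140, 96 and 7 genes and 0, 1 and 0 GEFs. Arhgef2 was not called without the low-value filter (adjusted p = 0.163), with it at the 25th percentile (0.117) or with the variance filter (0.491), nor was Arhgef18 with the variance filter (0.188). The adjusted p of Arhgef18 ranged from 0.000857 to 0.461 over its alternatives and that of Arhgef2 from 0.00492 to 0.546. With the block no GAP or GEF lost its call. Near 0, Rasa1 ranged from -0.0077 to 0.0746 and Rapgef2 from -0.0123 to 0.092 over the left-out arrays, and turned negative without both arrays of replicate 1, Rasa1 also without control replicate 1 (-0.0015). Over the 23 genes followed, 347 gene and setting pairs kept direction and side of the threshold, 40 crossed to a call, 21 lost one and 3 turned. Values near background are compressed by RMA, which limits Dock10, Arhgap4 and Srgap1, and the fits of Dock10 without the filter were chosen after seeing the data.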

Other observations

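Of the 91 members, 7 have more than 1 probe set. Both probe sets of Arhgef5, a RhoGEF whose signal lay under the array medians, were higher in the knockdown, by 0.14 and 0.18, and the brighter one measured 7.06, 7.01 and 6.96 on the control arrays and 7.13, 7.22 and 7.11 on the knockdown arrays, so that no knockdown array lay below a control array. Both probe sets of Rapgef1 were higher as well, by 0.10 and 0.08. Those of Arhgap27 lay on either side of 0, at 0.04 and -0.02. The dimmer probe sets were not tested, and these genes were chosen after their values were seen.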
